A study of Mus musculus with 2 samples.

Results

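The transducin family is represented here by 7 genes: the alpha subunits Gnat1 (rod), Gnat2 (cone) and Gnat3 (taste), the beta subunits Gnb1 (rod) and Gnb3 (cone), and the gamma subunits Gngt1 (rod) and Gngt2 (cone). They were found as non-control array probes whose RefSeq transcript accession belongs to one of these genes. All 7 had a probe among the 21367 genes named on the array, with 8 probes in all because Gnb1 had 2, and each probe stood as a single spot.

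Transducin is the G protein that passes the light signal from an activated opsin to the phosphodiesterase PDE6. Its alpha subunit binds GTP and removes the inhibitory subunit of PDE6, which lowers cyclic GMP and closes the cation channels of the outer segment. The beta and gamma subunits form a tight dimer that holds the inactive alpha subunit at the disc membrane. Rods and cones use separate genes for all 3 subunits, so the rod set is Gnat1, Gnb1 and Gngt1 and the cone set is Gnat2, Gnb3 and Gngt2. Gnat3, gustducin, serves sweet, bitter and umami taste cells.

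Total RNA of dissected mouse retina was labelled with the dye Cy3 and measured on 1-colour Agilent arrays, 1 array from a Samd7 KO retina sample at postnatal day 12 and 1 from a wild type retina sample of the same age. Samd7 encodes a sterile alpha motif protein of photoreceptors that acts with Polycomb complex 1, and the question is how loss of it alters the retinal expression profile. The strain, the extent of the Samd7 deletion, and how many animals or retinas gave each RNA are not stated in the labels. The signal of the Samd7 probe was 3.44-fold higher on the array labelled KO (log2 signal 6.47, against 4.68 on the wild-type-labelled array), and whether that probe lies within the deleted part is not known here. Each direction below therefore rests on the labels, and the arrays are called KO-labelled and wild-type-labelled.

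With 1 array per group there is no test, and every difference compares these 2 RNA samples only. Log2 signals are given relative to each array's 75th percentile of processed signal, and a difference is KO-labelled minus wild-type-labelled. Processed signals are printed before that scaling, so their ratio differs slightly from the fold given. A gene was counted from a 2-fold difference upward. By that rule 251 of 15929 genes (1.58%) were higher and 218 (1.37%) were lower. Among the 1486 genes with a mean log2 signal of at least 4, where 6 of the 7 transducin genes lie, 16 (1.08%) were higher and 3 (0.202%) were lower. Repeated spots of the same probe gave an SD of the difference of 0.05 (174 probes with a log2 signal of 0 or more). This SD grew at dimmer log2 signals, to 0.09 from -2 to 0, 0.19 from -4 to -2 and 0.52 below -4. For the transducin probes the scanner software's own spot error is wider, with an SD of 0.20 to 0.21 for the log2 difference. The 95% intervals given below come from the software's error. Both errors describe the spot and the scan, not the spread between animals. All 8 genes of the rod regulator list and all 10 ON bipolar cell markers were well above background on both arrays. So were 15256 of the 21367 named genes, all 9 pigment epithelium markers and all 9 microglia and leukocyte markers. The background call alone therefore does not identify the tissue. In whole retina, fewer cells of a type and less RNA per cell cannot be told apart.

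Promoter windows are given as a description only. Of the 7 genes, 4 (Gnat2, Gnat3, Gnb1 and Gngt1) have an entry in the RefSeq promoter table of build GRCm38.p6, and Gnat1, Gnb3 and Gngt2 have none. The cone subunits therefore cannot be compared with each other here, nor Gnat1 with the other rod subunits. The window of Gnb1 was searched but is not printed. The 250 bases upstream of the start site are printed 5′ to 3′ on the plus strand for a cone, a rod and the taste gene, with capitals marking a match to TAATCC on either strand, the core that the photoreceptor homeobox factors Crx and Otx2 bind.
Gnat2 (chr3:108092816-108093065): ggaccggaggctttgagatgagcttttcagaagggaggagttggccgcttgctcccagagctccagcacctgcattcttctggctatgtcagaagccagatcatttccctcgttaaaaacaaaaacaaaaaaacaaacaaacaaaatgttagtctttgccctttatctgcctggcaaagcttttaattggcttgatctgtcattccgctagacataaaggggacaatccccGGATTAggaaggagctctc
Gngt1 (chr6:3993758-3994007): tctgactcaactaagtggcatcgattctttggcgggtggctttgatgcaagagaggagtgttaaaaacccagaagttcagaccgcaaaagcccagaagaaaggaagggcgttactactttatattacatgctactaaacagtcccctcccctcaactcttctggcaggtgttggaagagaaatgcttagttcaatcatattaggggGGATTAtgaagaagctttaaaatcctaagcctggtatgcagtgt
Gnat3 (chr5:17962320-17962569): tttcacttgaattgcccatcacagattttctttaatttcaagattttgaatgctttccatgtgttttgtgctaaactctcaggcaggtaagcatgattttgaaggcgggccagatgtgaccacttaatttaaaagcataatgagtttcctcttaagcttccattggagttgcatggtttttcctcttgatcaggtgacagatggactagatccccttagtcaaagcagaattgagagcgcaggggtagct
Gnat2 and Gngt1 each hold the core once, read as GGATTA on the printed strand, at bases -19 to -14 and -44 to -39 from the start site. Of all 32851 windows of this length, 6.25% hold it. TGCTGA, a partial site of Maf and Nrl factors (16.1% of all windows), occurs in none of the 4 members' windows, and AGGTCA, a partial nuclear receptor site (14.02%), only in that of Gnb1. The motifs were searched on both strands, and no 2 matches overlap. Absence of a match says only that these letters are not in the window.

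The members lay on both sides of zero. Gngt2, the cone gamma subunit, was 5.47-fold higher on the KO-labelled array, and Gnat1, the rod alpha subunit, was 4.38-fold lower. Gnat3 was 4.78-fold lower at a far dimmer signal, Gnb3 was 1.85-fold higher, and the cone alpha subunit Gnat2 was level. Of the 7 genes, 1 was at least 2-fold higher, where 1.58% of all genes were, and 2 were at least 2-fold lower, where 1.37% were, with a median difference of -0.28 beside -0.02 over all genes.

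**Figure D1:**
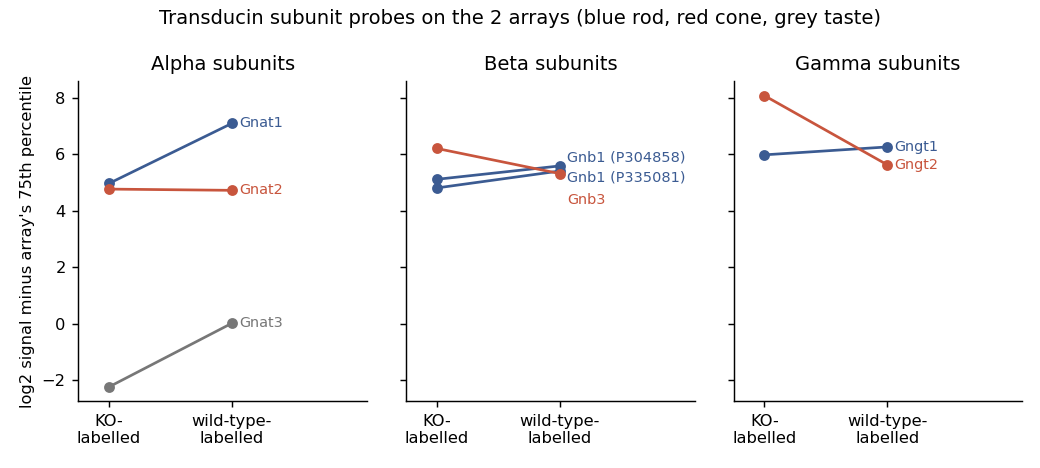
Log2 signal minus the array's 75th percentile (vertical axis) of each transducin probe on the KO-labelled array (left) and the wild-type-labelled array (right), in panels for alpha, beta and gamma subunits; a line joins the 2 spots of a probe. Gnat1 and Gnat3 are lower on the KO-labelled array, Gngt2 and Gnb3 are higher, and Gnat2 is flat at 4.77 against 4.73.

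Among the alpha subunits, Gnat1 carried the rod difference. Its probe A_52_P211185 had a processed signal of 17412 on the KO-labelled array, against 79039 on the wild-type-labelled array. The log2 difference was -2.13, with an interval of -2.53 to -1.73. Of the 15256 genes above background on both arrays, 13 had a lower value than Gnat1. None of the 1486 genes of the bright range had a lower value. The other 2 genes at least 2-fold lower in that range were Drd4, a dopamine receptor of photoreceptors, at -1.26 and the rod nuclear receptor Esrrb at -1.09.

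Gnat2, which does the same step in cones, did not follow the other cone subunits. Its signal was 15136 on the KO-labelled array and 15232 on the wild-type-labelled array, a log2 difference of 0.04 with an interval of -0.36 to 0.44. Relative to Gnat1, the difference of Gnat2 was 2.17 higher on the log2 scale.

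Gnat3 was dim, with a signal of 117 on the KO-labelled array, against 582 on the wild-type-labelled array. Both spots were well above background, and the log2 difference was -2.26 (interval -2.66 to -1.85), within 0.13 of that of Gnat1. Under normexp background correction the 2 values lay farther apart, -1.76 for Gnat3 and -2.15 for Gnat1. Gnat1 and Gnat3 are close relatives, and a contribution of Gnat1 transcripts to the Gnat3 spot was not tested. Of 9 taste and tuft cell markers, 5 were not well above background on either array, among them the channel Trpm5 and the phospholipase Plcb2, which work downstream of gustducin. The markers' summed linear signal, relative to the 75th percentile, was 91.1 on the KO-labelled array and 35.0 on the wild-type-labelled array, nearly all of it from Gng13, a gamma subunit that ON bipolar cells also make. The part of these cells in the Gnat3 signal was not tested beyond these values.

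The 2 beta subunits moved apart. Gnb1, which pairs with the rod alpha subunit and is also made in many other cells, gave signals of 15563 and 19242 in its probes A_51_P335081 and A_52_P304858 on the KO-labelled array. On the wild-type-labelled array the same probes gave 24480 and 27737. The log2 differences were -0.60 (interval from just past the 2-fold line, on the lower side, to -0.20) and -0.47 (interval -0.87 to -0.07), so both probes of the gene lay on the lower side and neither reached 2-fold.

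Gnb3, the beta subunit of cones and of ON bipolar cells, had a signal of 41103 on the KO-labelled array, against 22990 on the wild-type-labelled array. Its log2 difference was 0.89, with an interval of 0.49 to 1.29, just under the 2-fold line. Of the bright genes, 1.21% were higher than that. Since bipolar cells share the gene, their markers were set beside it. The 10 ON bipolar markers had a median difference of 0.05, from -0.14 for the transcription factor Isl1 to 1.43 for Gng13. Only Gng13 was at least 2-fold apart, on the higher side, where 1.58% of all genes were. The receptor of these cells, Grm6, was at 0.03, and their channel Trpm1 at 0.08, with -0.40 to 0.12 among its 3 probes.

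**Figure D2:**
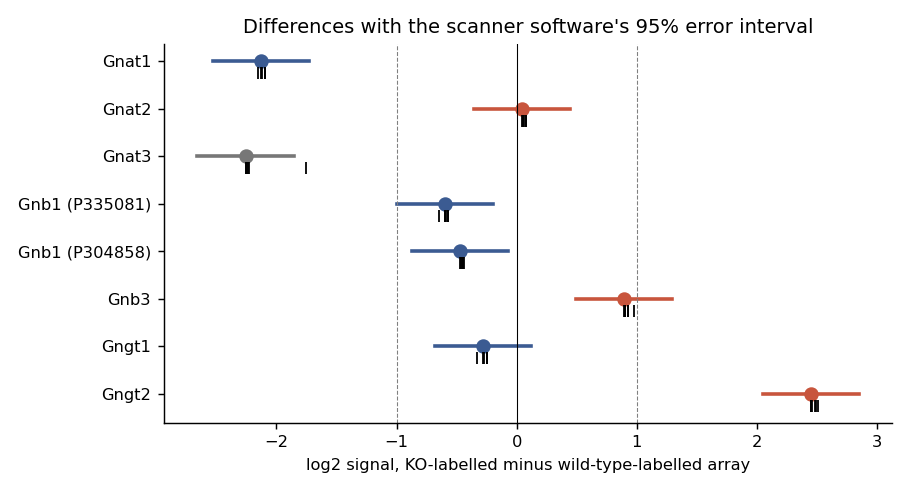
Log2 difference, KO-labelled minus wild-type-labelled, of each transducin probe (dot, blue rod, red cone, grey taste) with its 95% interval from the scanner software's spot error (line). Black ticks are the values under the 6 other ways of processing the probe, and dashed lines mark 2-fold. The intervals of Gnat2 and Gngt1 include 0, and those of Gnat1, Gnat3 and Gngt2 lie wholly beyond 2-fold.

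The gamma subunits carry the farnesyl anchor of the dimer. Between their cone and rod genes, the log2 differences lay 2.73 apart, beside 2.17 for the alpha and 1.37 for the beta subunits. That ranking carries no test. Gngt1, the rod form, had a signal of 35107 on the KO-labelled array, against 44234 on the wild-type-labelled array. Its log2 difference was -0.28, with an interval of -0.68 to 0.12. It was lower by more than 1 SD of either error, and the 95% interval from the software's spot error included 0.

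Gngt2, the cone form, had a signal of 150521 on the KO-labelled array, against 28536 on the wild-type-labelled array. The log2 difference was 2.45, with an interval of 2.05 to 2.85. Among the 15256 genes above background on both arrays, 27 were higher. In the bright range 3 of 1486 genes were higher, Fabp7, a fatty acid binding protein, at 2.61, the cone gene Ccdc136 at 3.61, and granzyme M, Gzmm, at 3.65. Relative to Gngt1, the difference of Gngt2 was 2.73 higher on the log2 scale. Relative to Gnat2, the alpha subunit of the same cone G protein, it was 2.41 higher.

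The spots around each transducin spot were level as groups. Within 4 rows and columns, 45 to 48 spots above background surrounded each transducin spot, and their median difference ran from -0.06 around Gnat1 to 0.0047 around a Gnb1 spot. No transducin spot was saturated or marked as an outlier on either array.

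**Figure D3:**
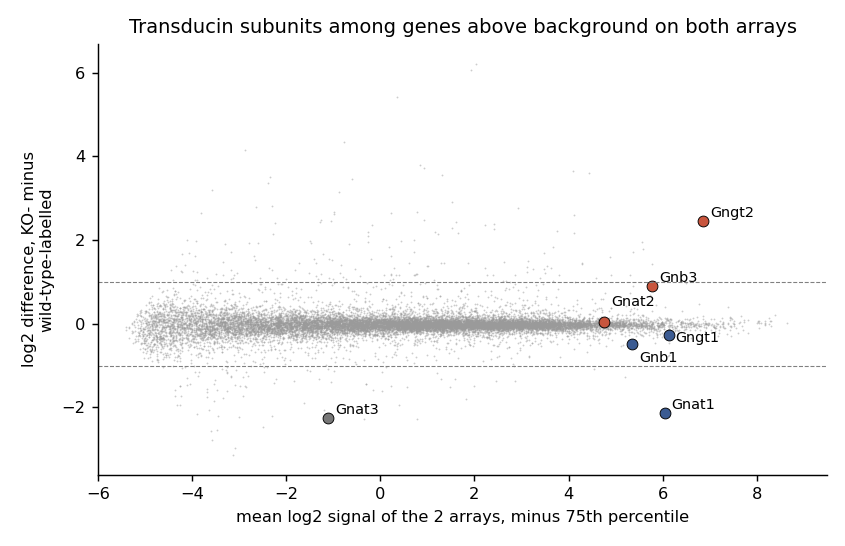
Each grey point is 1 of the 15256 genes above background on both arrays, by mean log2 signal (horizontal) and log2 difference, KO-labelled minus wild-type-labelled (vertical); transducin genes are coloured and dashed lines mark 2-fold. Gnat1 (-2.13) and Gngt2 (2.45) stand off from genes of like brightness, and Gnat2 (0.04) lies among them.

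Genes that act on transducin were mostly slightly lower on the KO-labelled array, and Gpsm2 and Frmpd1 were the 2 past 2-fold. Of 17 such genes, 15 were below 0, where 57.6% of all genes were, with a median of -0.16. Of the same genes, 2 were at least 2-fold lower, where 1.37% of all genes were. None was 2-fold higher, where 1.58% of all genes were. Gpsm2 (LGN), which binds alpha subunits in their GDP form, was lower by the widest margin, at 0.72 on the KO-labelled array and 2.23 on the wild-type-labelled array, a difference of -1.52. Frmpd1, a photoreceptor protein that helps rod transducin move between compartments and binds Gpsm2, was at 2.34 on the KO-labelled array and 3.34 on the wild-type-labelled array. Its difference of -1.01 just passed 2-fold and became -0.93 under normexp background correction.

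The remaining handling genes stayed within 2-fold. The highest were the farnesyltransferase subunit Fntb at 0.08, with -0.20 in its other probe, and Klhl18, a ubiquitin ligase adaptor that acts on the transducin chaperone Unc119, at 0.07. Unc119 itself was at -0.11 and phosducin, Pdc, which binds the beta-gamma dimer, at -0.24. In the complex that speeds GTP hydrolysis by the alpha subunit, the anchor Rgs9bp was at -0.51, Rgs9 at -0.40, with up to 0.07 among its 3 probes, and Gnb5 at -0.16.

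G protein subunits outside transducin had group medians near 0. The 13 other alpha subunits had a median difference of 0.005 and no member 2-fold apart, from Gna15 at -0.81, a subunit of blood cells, and Gna13 at -0.09 up to Gnaz at 0.16 and Gna14 at 0.48. Gna14 was dim, with log2 signals of -4.19 on the KO-labelled and -4.67 on the wild-type-labelled array, where the repeated-spot SD was 0.52. Gnas, the stimulatory subunit, was at 0.04 in its brightest probe and 0.16 in the next. Its dimmest probe was well above background on the wild-type-labelled array (-4.42) but not on the KO-labelled array, so it gave no measured difference. The inhibitory subunits Gnai1, Gnai2 and Gnai3, the closest relatives of the transducin alpha genes, lay between -0.05 and 0.0084. The 13 other beta and gamma subunits had a median of -0.05 and 1 member at least 2-fold higher. That member was Gng13, with log2 signals of 6.48 on the KO-labelled array and 5.05 on the wild-type-labelled array. Gnb2, a broadly made beta subunit, was at 0.97, just under 2-fold, whereas Gng4 was at -0.36 and Gnb4 at -0.25. Beta subunits are close in sequence, and signal shared between their probes was not tested.

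**Figure D4:**
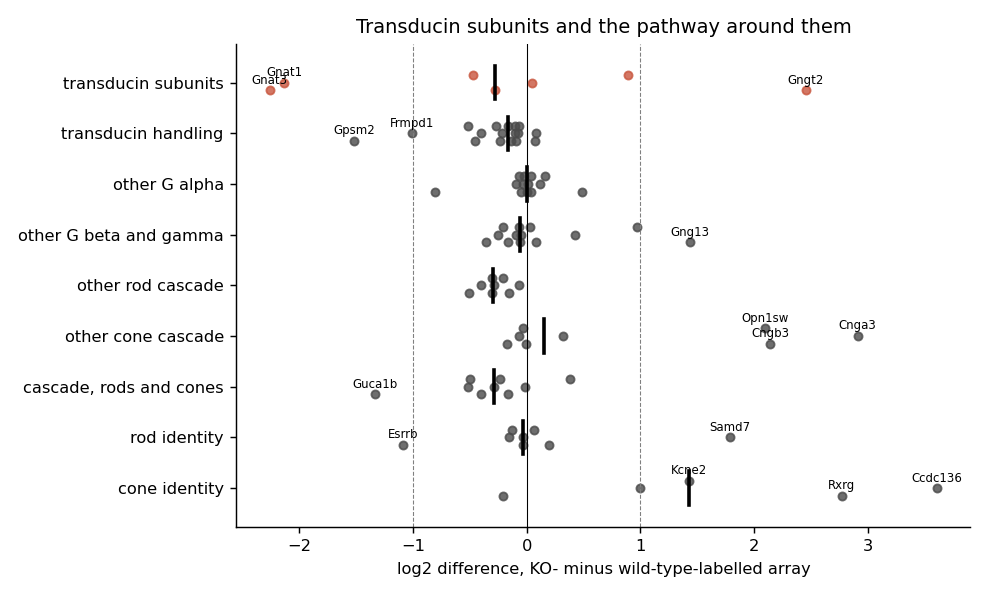
Log2 differences, KO-labelled minus wild-type-labelled, of the transducin genes (red) and of 8 lists around them (grey), 1 point per gene; the black bar is the list's median, dashed lines mark 2-fold, and genes beyond it are named. Gpsm2 and Frmpd1 are the 2 handling genes past 2-fold, and the other alpha subunits centre on 0.

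In the rod cascade around transducin, differences were small and on 1 side. All 8 other rod genes were below 0, where 57.6% of all genes were, with a median of -0.29 and none 2-fold apart. They ran from the exchanger Slc24a1 at -0.51 and the channel subunit Cngb1 at -0.40 to the phosphodiesterase subunits Pde6a at -0.16 and Pde6b at -0.07. Gngt1 (-0.28) lay within that range, as did the brighter Gnb1 probe (-0.47), the other Gnb1 probe (-0.60) lay just below it, and Gnat1 (-2.13) well outside it.

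The cone cascade held both high and level genes, as the cone transducin subunits did. Of 8 other cone genes, 3 were at least 2-fold higher, where 1.58% of all genes were. None was 2-fold lower, and the median was 0.15. The channel subunits Cnga3 (2.91) and Cngb3 (2.14) and the short-wavelength opsin Opn1sw (2.09) lay on either side of Gngt2 (2.45). The medium-wavelength opsin Opn1mw (-0.17), the exchanger Slc24a2 (-0.06) and the phosphodiesterase subunits Pde6c (-0.04) and Pde6h (-0.01) were near level, as Gnat2 was.

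Genes that rods and cones share had a median of -0.28 over 9 members, with 1 at least 2-fold lower, where 1.37% of all genes were. This was Guca1b, a calcium sensor of guanylate cyclase, at -1.33 and -2.07 in its 2 probes, while the related Guca1a was at 0.38. The cyclase Gucy2e was at -0.01 in its brightest probe, with -0.22 and -0.34 in its other probes. Among rod regulators, Nrl was at -0.16 and Samd11, the relative of Samd7, at 0.19 (median -0.03 over 8). The only members 2-fold apart were Esrrb, lower, where 1.37% of all genes were, and Samd7 itself, higher, where 1.58% were. Of 5 further cone markers, 3 were at least 2-fold higher, where 1.58% of all genes were. These were Ccdc136 (3.61), the nuclear receptor Rxrg (2.77, with 1.23 in its other probe) and Kcne2 (1.42). The list was chosen with earlier results of these data known. Otop3 was at 0.997 and the thyroid hormone receptor Thrb at -0.21 (median 1.42).

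Markers of other cells in or near the retina were read beside these values. Lens markers were higher on the KO-labelled array, with 7 of 10 at least 2-fold up, where 1.58% of all genes were. Their summed linear signal, on the scale used for taste cells, was 18.8 on the KO-labelled array, against 4.34 on the wild-type-labelled array. Pigment epithelium markers summed to 44.4 on the KO-labelled and 52.2 on the wild-type-labelled array. A large part of both sums came from Rlbp1, also a Müller glia marker, which was level at a log2 signal of 4.49 on both arrays. Of the list, 8 of 9 were below 0, where 57.6% of all genes were. The differences ran from -0.81 for Pmel to 0.15 for Best1, with none 2-fold apart. Microglia and leukocyte markers summed to 11.9 on the KO-labelled and 13.4 on the wild-type-labelled array. Of these, 8 of 9 were below 0, where 57.6% of all genes were. Müller glia markers summed to 194.6 on the KO-labelled and 172.4 on the wild-type-labelled array, amacrine and horizontal cell markers to 130.2 on the KO-labelled and 127.3 on the wild-type-labelled array, and ganglion cell markers to 125.8 on the KO-labelled and 128.6 on the wild-type-labelled array. None of these last 3 lists had a member 2-fold apart. The part of the lens and pigment epithelium signals in the transducin differences was not tested.

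The mouse transducin genes lie beside relatives in the genome, Gnat1 near Gnai2, Gnat2 near Gnai3, Gnat3 near Gnai1 and Gngt1 next to Gng11, so the nearest genes were read as well, a step chosen after the data had been seen. Of the 28 protein-coding genes that are the 2 nearest on either side, 21 were above background on both arrays. Their median difference was -0.006, and 1 was at least 2-fold apart. Of all 15256 genes above background on both arrays, 160 were at least 2-fold higher and 94 at least 2-fold lower. Gnai2 was at 0.0084, Gnai3 at -0.03, Gnai1 at -0.05 and Gng11 at -0.07. The lowest neighbour was Slc38a3, an amino acid transporter next to Gnat1, at -0.42.

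The single neighbour past 2-fold was Abi3, a cytoskeletal adaptor gene of microglia, next to Gngt2. Its log2 signal was -0.24 on the KO-labelled array and -1.35 on the wild-type-labelled array, a difference of 1.12 (0.92 under normexp), although the microglia markers had a median of -0.13. The annotated spans of Abi3 and Gngt2 overlap, and whether transcripts are shared between their probes was not tested.

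**Figure D5:**
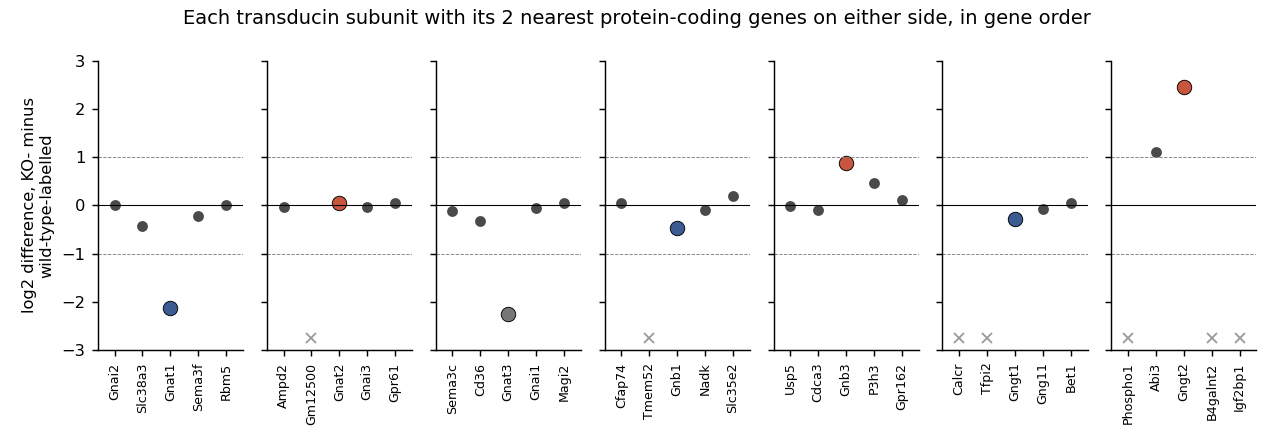
Log2 difference, KO-labelled minus wild-type-labelled, of each transducin gene (large point) and of the 2 nearest protein-coding genes on either side, in gene order and not to scale; crosses at the bottom mark genes with no named probe or not above background on both arrays, and dashed lines mark 2-fold. Among the neighbours plotted as points, Abi3, beside Gngt2, is the one past 2-fold.

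Genes whose brightest probe lay nearest to a member in the plane of the 2 arrays' log2 signals were taken as the most alike, a closeness over 2 arrays among 14450 genes that carries no test. Gnat2 had many such genes, the nearest being Cisd1, Rpl28 and Drap1 at distances of 0.0088 to 0.010. For Gngt1 they were Luc7l2, Ubtf and Cst3 (0.061 to 0.11), for Gnb1 Sgsh, Hemgn and Ttyh1 (0.16 to 0.19), and for Gnb3 Cplx2, Atp5k and Apoe (0.16 to 0.35). For Gnat3 they were Zfp952 (0.19), Myo7a (0.62) and Tph1 (0.70). Gnat1 and Gngt2 had no close match. The genes reported for Gnat1 are Tmem229b at 0.99, with a difference of -0.74, and the photoreceptor disc protein Prom1 at 1.18, with -0.47. For Gngt2 they were Gnb2 at 1.17, Tmsb10 at 1.41 and C2cd2l at 1.61.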

How the data were processed

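Total RNA of 2 mouse retina samples at postnatal day 12, 1 labelled Samd7 KO and 1 labelled wild type, was hybridised to 1-colour Agilent arrays. The authors deposited intensity values that came from Agilent Feature Extraction 11.5.1.1 under protocol GE1_1105_Oct12, per the file headers, and the array design used mouse build mm9. The authors' value table holds the same intensities times a constant per array (column medians 106.0 KO-labelled and 107.8 wild-type-labelled). How that constant was set is not known here.

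Processed signals of 59305 non-control spots per array were taken as log2 minus the array's 75th percentile. Spots marked as outliers (163 on the KO-labelled and 119 on the wild-type-labelled array) were left out, and repeated spots of a probe were averaged. Of 55677 probes, 28330 were named by RefSeq accession (GRCm38.p6 table, names and gene order only). The brightest probe stood for a gene. A probe was above background where most of its spots were so by the scanner's call, which held for 60.9% of KO-labelled and 60.3% of wild-type-labelled spots. Genes above background on 1 array only entered as bounds. The number of arrays limits the precision. Counting was tested on simulated data with a single probe per gene, all above background on both arrays, and noise from repeated spots only. The bounds, the choice of probe and the spread between animals were not part of that simulation. Intervals are the difference ± 1.96 times the combined spot errors. Normexp used limma 3.58.1 in R 4.3.3, with an offset of 50 on median signals.

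The members and the lists were chosen with earlier results of these data known. Named genes were all members, Samd7, the 2 highest and 2 lowest of each pathway list, its members at least 2-fold apart, and the 3 genes most alike to each member. Marker lists are given mainly by counts and sums, and genes named outside this rule are examples chosen after their values were seen. One gene of the last kind is not reported here. Protein sequences were not used here.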

Additional observations from a re-analysis of the deposited data

How the results depend on the processing

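Every transducin probe kept its sign, and its side of the 2-fold line, under each of 6 other ways of processing it: median centring, quantile normalization, loess normalization, normexp on median signals, the authors' value table, and flagged spots kept. Gnat1 ran from -2.15 to -2.10, Gngt2 from 2.45 to 2.50 and Gnat2 from 0.04 to 0.08. Moves beyond the repeated-spot SD came from normexp, which gave -1.76 for Gnat3, 0.98 for Gnb3, -0.33 for Gngt1 and 2.50 for Gngt2. The offset of 50 shrinks differences of dim spots by arithmetic, and Gnat3 was the dimmest probe. The mean over both probes put Gnb1 at -0.54. Against 251 genes higher and 218 lower, normexp gave 120 and 45, genes above background on both arrays 160 and 94, no filter 579 and 671, a 1.5-fold threshold 471 and 510, a 4-fold threshold 79 and 58, and a mean log2 signal of at least 4, chosen after seeing the data, 16 and 3. Of 128 recomputed medians of the 16 lists, 127 moved by no more than 0.14, the lens median was 1.14 under normexp and 1.90 in the values as reported, and 3 medians near 0, of the other alpha subunits and of ganglion cell markers, changed sign. No paired analysis was possible because there was only 1 array of either genotype. Normexp on mean signals was not run, since the files used here hold median signals.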

Other observations

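Among the 1486 bright genes, the 16 at least 2-fold higher on the KO-labelled array held 2 G protein gamma subunits, Gngt2 (2.45) and Gng13 (1.43). They also held Cltb, a clathrin light chain, at 2.16, and Map6, a microtubule-associated protein, at 1.95. These genes were chosen after their values were seen.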
